A study of Homo sapiens with 24 samples.

Results

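Complexes II to V of the mitochondrial respiratory chain and ATP synthase are built from subunits of both genomes. The set described here held 45 of the 51715 genes counted in the series: 6 mitochondrially encoded mRNAs (MT-CYB, MT-CO1, MT-CO2, MT-CO3, MT-ATP6 and MT-ATP8) and 39 nuclear genes. The members were listed by symbol as subunits of these complexes, by a rule that uses no measured value, although earlier results of these data were known when the list was drawn up, and were tied to Ensembl gene IDs, which succeeded for 45 of 45. By complex, the nuclear members were 4 of complex II, 9 of complex III, 11 of complex IV and 15 of complex V. The 15 genes of complex V carry ATP5F1, ATP5MC, ATP5P and ATP5M symbols today and older symbols such as ATP5A1 or ATP5G1 in earlier annotation. All 45 were detected, with a mean above 10 CPM (reads per 1000000 counted reads, scaled between libraries by the trimmed mean of M values, TMM).

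The series consists of poly(A)+ RNA-Seq of total RNA, extracted from whole cells, and of cytoplasmic RNA, in 3 untreated human cancer cell lines. These are A-431, an epidermoid carcinoma line that carries very high EGFR levels, U-251MG, a glioblastoma line, and U-2 OS, an osteosarcoma line. GEO's labels give 4 total and 4 cytoplasmic libraries for each line, 24 in all, and no genetic change or agent in any group. Each tumor type is thus represented by 1 established line, and a difference between lines is one between these lines and not between tissues. The labels do not tie libraries to separate cultures, while the study's methods describe them as biological replicates. Whether a total and a cytoplasmic library came from the same culture is not given in the sources used here.

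Complex II (succinate dehydrogenase) passes electrons from succinate to ubiquinone and is encoded wholly in the nucleus. Complex III (the cytochrome bc1 complex) passes them on to cytochrome c, complex IV (cytochrome c oxidase) reduces oxygen with them, and complex V (ATP synthase) uses the proton gradient to make ATP. The mitochondrial genome encodes the catalytic cores of complexes III and IV (cytochrome b and the subunits that hold the heme and copper centers) and parts of the proton channel of complex V. Its mRNAs are cut from long transcripts, carry short poly(A) tails and are translated inside the organelle, whereas the nuclear mRNAs pass the nuclear envelope and are translated in the cytosol.

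The mitochondrially encoded members lay on the plus strand of the mitochondrial chromosome (M, GRCh37 reference): MT-CO1 at 5904-7445, MT-CO2 at 7586-8269, MT-ATP8 at 8366-8572, MT-ATP6 at 8527-9207, MT-CO3 at 9207-9990 and MT-CYB at 14747-15887. None has introns. MT-ATP8 and MT-ATP6 share 46 bases in different reading frames on 1 bicistronic mRNA, and MT-ATP6 and MT-CO3 share base 9207. These junctions are shown because MT-ATP6 and MT-CO3, although adjacent, gave different ratios between the fractions. Capitals mark the bases shared by MT-ATP8 and MT-ATP6 (chrM:8507-8592) in the first sequence and the start of MT-CO3 (chrM:9167-9246) in the second. The third is the matching stretch of a nuclear copy on the plus strand (chr1:569716-569795), with its 1 differing base in capitals.
MT-ATP8/MT-ATP6: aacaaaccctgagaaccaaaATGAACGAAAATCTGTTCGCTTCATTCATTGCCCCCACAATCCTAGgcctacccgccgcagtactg
MT-ATP6/MT-CO3: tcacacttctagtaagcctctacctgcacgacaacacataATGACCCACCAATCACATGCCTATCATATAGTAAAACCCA
chromosome 1 copy of MT-ATP6/MT-CO3: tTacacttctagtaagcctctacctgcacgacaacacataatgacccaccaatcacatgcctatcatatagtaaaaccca

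ATP5MC1, ATP5MC2 and ATP5MC3 encode the same mature subunit c, which forms the rotating ring of ATP synthase, behind different import sequences. Their last 150 coding bases are shown because they let reads of the 3 genes be told apart, although the protein is the same. Capitals mark positions at which the 3 genes are not all identical, 37 of 150 in number.
ATP5MC1: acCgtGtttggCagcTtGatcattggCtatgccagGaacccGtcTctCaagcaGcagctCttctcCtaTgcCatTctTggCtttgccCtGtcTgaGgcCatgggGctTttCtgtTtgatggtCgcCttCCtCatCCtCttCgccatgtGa
ATP5MC2: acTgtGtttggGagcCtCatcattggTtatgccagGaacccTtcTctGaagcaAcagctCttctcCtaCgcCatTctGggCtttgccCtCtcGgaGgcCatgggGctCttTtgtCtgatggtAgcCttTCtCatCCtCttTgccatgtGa
ATP5MC3: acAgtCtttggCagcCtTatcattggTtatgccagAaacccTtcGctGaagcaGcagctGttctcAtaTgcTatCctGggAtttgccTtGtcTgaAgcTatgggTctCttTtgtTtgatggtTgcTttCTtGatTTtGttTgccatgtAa
ATP5MC1 and ATP5MC2 were identical at 88.0% of these positions, ATP5MC1 and ATP5MC3 at 80.0%, and ATP5MC2 and ATP5MC3 at 80.67%. The longest run of identical coding bases between any pair was 17, which is shorter than a read of 100 bases.

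Many nuclear genes of these complexes are known targets of the transcription factors NRF1, GABPA (also called NRF2) and YY1. The 300 bases around the gene start (250 before and 50 after, RefSeq, GRCh38.p14) were at hand for 30 of the 39 nuclear members. Both strands were searched for GCGCA and GCGC with any 1 base between them (NRF1), CCGGAAG (GABPA), AANATGGC (YY1) and GGGCGG (SP1), each counted by itself. An NRF1 match was found in 9 of 30 members (30.0%) and in 6.28% of all 27305 promoters of the table. A GABPA match was found in 14 (46.67%) and in 10.67% of all promoters, and a YY1 match in 10 (33.33%) and 6.82%. An SP1 match was found in 17 (56.67%) and in 44.59%. At least 1 of the first 3 was present in 22 of 30 members (73.33%) and in 20.85% of all promoters. A match is a description of the letters and no measured binding site. The promoters of 4 members on which the comparisons below turn are given 5′ to 3′ on the strand of the gene, with NRF1, GABPA and YY1 matches in capitals: UQCR11 (chr19:1605413-1605712, minus), COX8A (chr11:63974370-63974669, plus), COX7B (chrX:77899218-77899517, plus) and ATP5ME (chr4:674227-674526, minus).
UQCR11: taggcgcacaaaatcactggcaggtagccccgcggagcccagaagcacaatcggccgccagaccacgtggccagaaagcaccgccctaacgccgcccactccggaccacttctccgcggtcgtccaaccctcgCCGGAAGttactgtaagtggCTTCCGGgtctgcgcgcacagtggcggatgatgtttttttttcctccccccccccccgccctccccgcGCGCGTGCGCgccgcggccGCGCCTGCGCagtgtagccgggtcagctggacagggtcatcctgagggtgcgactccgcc
COX8A: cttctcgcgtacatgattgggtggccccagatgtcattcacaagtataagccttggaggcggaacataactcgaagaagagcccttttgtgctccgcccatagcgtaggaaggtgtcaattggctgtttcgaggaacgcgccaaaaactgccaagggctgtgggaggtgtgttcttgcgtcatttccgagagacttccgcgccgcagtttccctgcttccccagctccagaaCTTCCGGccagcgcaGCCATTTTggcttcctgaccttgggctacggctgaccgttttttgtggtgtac
COX7B: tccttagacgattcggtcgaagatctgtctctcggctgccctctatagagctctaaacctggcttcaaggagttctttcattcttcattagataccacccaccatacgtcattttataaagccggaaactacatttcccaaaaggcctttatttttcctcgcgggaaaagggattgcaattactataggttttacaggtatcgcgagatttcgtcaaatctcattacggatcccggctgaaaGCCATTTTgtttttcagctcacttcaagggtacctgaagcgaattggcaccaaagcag
ATP5ME: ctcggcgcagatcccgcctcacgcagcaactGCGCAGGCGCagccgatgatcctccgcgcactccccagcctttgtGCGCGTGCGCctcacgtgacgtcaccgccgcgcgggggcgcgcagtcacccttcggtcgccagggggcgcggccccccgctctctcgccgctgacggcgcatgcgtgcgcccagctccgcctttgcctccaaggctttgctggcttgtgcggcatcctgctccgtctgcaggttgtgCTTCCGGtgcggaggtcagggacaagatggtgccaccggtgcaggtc
UQCR11 held 2 NRF1 and 2 GABPA matches, ATP5ME held 2 NRF1 and 1 GABPA matches, COX8A held 1 GABPA and 1 YY1 match, and COX7B held 1 YY1 match.

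The libraries held 19918911 to 32394170 counts in genes. Of the 24 libraries, 23 matched an entry of the study's table of assigned reads. The cytoplasmic U-2 OS library 13 matched none, had 18.6% of its reads outside genes against 12.2 to 15.4% in the others, and was left out of the tests, which leaves 3 cytoplasmic libraries in U-2 OS. No flow cell could be tied to library 13. All total libraries ran on flow cell A. The matched cytoplasmic libraries ran on flow cell B except U-251MG 19 and 20 and U-2 OS 14. In A-431, flow cell and fraction therefore cannot be told apart. MALAT1 and NEAT1, which are known as nuclear-retained RNAs, were lower in the libraries labelled total in all 3 lines without overlap. MALAT1 ranged from 8.37 to 18.5 CPM in A-431 total and from 25.0 to 39.1 CPM in A-431 cytoplasmic libraries, and NEAT1 from 177 to 321 CPM and from 635 to 779 CPM. The study's methods describe a check of the extracted RNA by capillary electrophoresis that runs the way the labels say, with a cytoplasmic U-2 OS extraction discarded after it. Total and cytoplasmic stand for libraries with these labels throughout, and the part of the MALAT1 and NEAT1 difference in the results was not tested. Of the 7 markers listed for each line, 5 for A-431, 6 for U-251MG and 2 for U-2 OS were highest in their own line, and KRT14 in A-431 and COL1A2 and TWIST1 in U-2 OS were under 1 CPM there.

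The mitochondrially encoded members took a smaller share of the counts in total than in cytoplasmic RNA in all 3 lines, and the 39 nuclear members differed far less. In A-431 the 6 MT members held 1.32, 1.17, 1.98 and 1.12% of the gene counts in total RNA, against 2.995, 3.25, 3.29 and 2.81% in cytoplasmic RNA. In U-251MG they held 1.91, 0.927, 1.103 and 0.817% in total RNA, against 2.55, 2.22, 2.46 and 2.28% in cytoplasmic RNA. In U-2 OS they held 1.84, 2.89, 2.44 and 2.76% in total RNA, against 3.49, 3.53 and 3.52% in cytoplasmic RNA. Fractions did not overlap in any of the 3 lines (as shares of the summed RPKM they overlapped in U-251MG, with 0.6391% in total library 5 against 0.5237% in cytoplasmic library 18), and in A-431 and U-251MG the highest total library was number 11 and number 5, which ran in the same lane of flow cell A. In library 13, left out of the tests, the share was 3.46%. Wilson 95% intervals of these shares, which cover counting error only, were as narrow as 1.116 to 1.124% in A-431 total 12, so that the spread between libraries and not the depth set the precision. These are shares of bulk libraries and do not give an amount of RNA per cell.

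The mean log2 share in total RNA minus that in cytoplasmic RNA was -1.18, -1.08 and -0.52 for the 6 MT members (A-431, U-251MG, U-2 OS). For the 39 nuclear members it was -0.0879, -0.179 and -0.0782. The nuclear members together held 0.381 ± 0.0123% in total and 0.405 ± 0.0163% in cytoplasmic RNA of A-431, and 0.389 ± 0.0114% and 0.441 ± 0.0175% in U-251MG (SD, n = 4 each). In U-2 OS they held 0.396 ± 0.00375% in total (SD, n = 4) and 0.418 ± 0.0105% in cytoplasmic RNA (SD, n = 3). These shares were not tested, since the members were chosen with results of these data known.

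**Figure D1:**
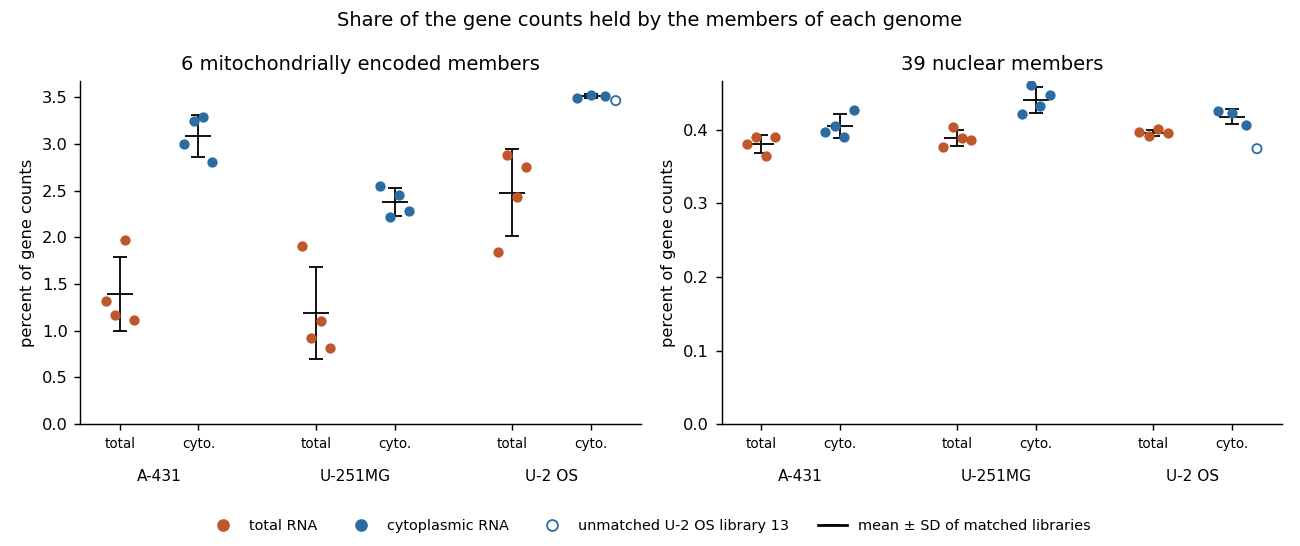
Percent of all gene counts held by the 6 mitochondrially encoded members (left) and the 39 nuclear members (right), by cell line and fraction. Points are libraries, lines the mean with SD of the matched libraries, and the open point the unmatched U-2 OS library 13. The MT share lies between 0.817 and 2.89% in total and between 2.22 and 3.53% in matched cytoplasmic libraries.

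Among the MT members, those of complexes III and IV had ratios well below 0 in every line. Those of complex V, which lie on the same mRNA, had ratios near 0 with wider standard errors in A-431 and U-251MG. MT-CYB, MT-CO1, MT-CO2 and MT-CO3 had log2 ratios of total over cytoplasmic RNA between -1.50 and -0.62 in the 3 lines. MT-ATP6 and MT-ATP8 had ratios between 0.02 and 0.25 with standard errors of 0.181 to 0.419. At an adjusted p under 0.001 (edgeR), 3 of the 6 were called lower in A-431 and none in U-251MG or U-2 OS, where 4 of 6 reached an unadjusted p under 0.05 and DESeq2 called MT-CO1, MT-CO2 and MT-CO3 lower. The median log2 ratio of the 6 was -1.04, -1.03 and -0.62 for A-431, U-251MG and U-2 OS, against -0.0111, 0.0005 and -0.0013 over all genes tested. Of all genes tested, 19.7% were called in A-431 (10.2% higher and 9.51% lower), 12.9% in U-251MG (5.93% higher and 6.98% lower) and 8.36% in U-2 OS (4.75% higher and 3.61% lower). The share of all genes at an unadjusted p under 0.05 is not given, so counts at that level, here and below, are descriptions only.

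MT-CYB encodes cytochrome b, the only subunit of complex III that the mitochondrial genome supplies. It had 1552, 1401, 2457 and 1367 CPM in A-431 total RNA, against 4795, 4935, 4778 and 4809 CPM in cytoplasmic RNA. Library 11 stood above the other total libraries, and no library of one fraction reached the range of the other. Its log2 ratio was -1.50 (SE 0.187, adjusted p = 0.000355). In U-251MG it had 2365, 1198, 1421 and 977 CPM in total RNA, against 3619, 3335, 2983 and 2954 CPM in cytoplasmic RNA. In U-2 OS it had 2274, 3612, 2902 and 3266 CPM in total RNA, against 4259, 4630 and 5076 CPM in cytoplasmic RNA. The fractions did not overlap in these lines either, and the ratios of -1.13 (SE 0.276, adjusted p = 0.0124) and -0.62 (SE 0.177, adjusted p = 0.0535) did not pass the threshold.

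MT-CO1 encodes the catalytic subunit of cytochrome c oxidase and was the most counted member. It had 4510, 3717, 6578 and 3853 CPM in A-431 total RNA, against 12700, 13180, 13100 and 12510 CPM in cytoplasmic RNA, a log2 ratio of -1.45 (SE 0.168, adjusted p = 0.000147). U-251MG gave 6352, 3442, 3871 and 3069 CPM in total RNA, against 11270, 10340, 10870 and 10060 CPM in cytoplasmic RNA, and U-2 OS gave 4685, 8070, 7161 and 7081 CPM in total RNA, against 11360, 11820 and 11920 CPM in cytoplasmic RNA. All total libraries were below all cytoplasmic libraries of their line. The ratio was -1.36 (SE 0.222, adjusted p = 0.00146) in U-251MG and -0.79 (SE 0.195, adjusted p = 0.0355) in U-2 OS, neither past the threshold.

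MT-CO2 encodes the subunit that takes electrons from cytochrome c. It had 2573, 2518, 3801 and 2120 CPM in A-431 total RNA, against 4600, 5557, 5755 and 3463 CPM in cytoplasmic RNA. These fractions overlapped, since total library 11 was above cytoplasmic library 24, and the log2 ratio was -0.80 (SE 0.234, adjusted p = 0.0266). For U-251MG the values were 2897, 1717, 1854 and 1581 CPM in total RNA, against 4122, 3214, 4122 and 3706 CPM in cytoplasmic RNA, a ratio of -0.93 (SE 0.194, adjusted p = 0.00421). U-2 OS gave 2879, 4244, 3859 and 4271 CPM in total RNA, against 6005, 5992 and 5687 CPM in cytoplasmic RNA, a ratio of -0.62 (SE 0.149, adjusted p = 0.0276). In these lines the fractions did not overlap, and edgeR made no call in any line.

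MT-CO3 encodes a core subunit of complex IV without redox centers. It had 2314, 1925, 3237 and 1863 CPM in A-431 total RNA, against 5751, 5931, 5860 and 5421 CPM in cytoplasmic RNA, a log2 ratio of -1.28 (SE 0.162, adjusted p = 0.00022). In U-251MG it had 2216, 1227, 1509 and 1148 CPM in total RNA, against 3643, 3105, 3383 and 3165 CPM in cytoplasmic RNA. For U-2 OS the values were 2930, 4348, 3892 and 4197 CPM in total RNA, against 6224, 6354 and 6366 CPM in cytoplasmic RNA. The 3 matched cytoplasmic libraries of U-2 OS differed little, and the fractions did not overlap in any line. The ratios of -1.14 (SE 0.204, adjusted p = 0.00211) in U-251MG and -0.71 (SE 0.14, adjusted p = 0.0118) in U-2 OS did not pass the threshold.

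MT-ATP6 encodes the subunit that forms the proton path of ATP synthase together with the ring of subunit c. It had 2256, 2155, 3783 and 2141 CPM in A-431 total RNA, against 2160, 3095, 3528 and 1362 CPM in cytoplasmic RNA. U-251MG gave 5234, 1891, 2420 and 1660 CPM in total RNA, against 3081, 2299, 2990 and 2604 CPM in cytoplasmic RNA. In U-2 OS it had 4301, 6299, 4584 and 6960 CPM in total RNA, against 5127, 4486 and 4458 CPM in cytoplasmic RNA. The fractions overlapped in every line, with libraries 11 of A-431 and 5 of U-251MG again the highest. Log2 ratios were 0.04 (SE 0.355, adjusted p = 0.932), 0.02 (SE 0.392, adjusted p = 0.974) and 0.25 (SE 0.21, adjusted p = 0.456) in A-431, U-251MG and U-2 OS. The sign rested on single libraries. The ratio of MT-ATP6 was below 0 without A-431 library 11 (-0.1971), 21 (-0.0246) or 24 (-0.1579), and without U-251MG library 5 (-0.4843), 18 (-0.0540) or 20 (-0.0060).

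MT-ATP8 encodes a small subunit next to MT-ATP6 in the membrane and shares its mRNA. It had 314, 267, 493 and 240.4 CPM in A-431 total RNA, against 268, 379, 437 and 135 CPM in cytoplasmic RNA. For U-251MG the values were 666, 240.3, 330.1 and 247 CPM in total RNA, against 332, 241, 462 and 366 CPM in cytoplasmic RNA. U-2 OS gave 542, 792, 612 and 813 CPM in total RNA, against 642, 573 and 539.7 CPM in cytoplasmic RNA. The fractions overlapped in all lines, and the log2 ratios of 0.12, 0.07 and 0.24 had standard errors of 0.419, 0.399 and 0.181. They were below 0 without A-431 library 11 (-0.1369) or 24 (-0.114) and without U-251MG library 5 (-0.3845) or 18 (-0.0709).

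Which MT members were called depended on the libraries. In A-431, MT-CYB lost its call without total library 9 or 10 or without any of the cytoplasmic libraries 21 to 24 (adjusted p between 0.001698 and 0.004953), MT-CO3 without total 9 or any cytoplasmic library, and MT-CO1 without cytoplasmic 21 or 24. In U-251MG all 4 mRNAs of complexes III and IV were called lower without total library 5. MT-CYB then had a log2 ratio of -1.45, MT-CO1 of -1.64, MT-CO2 of -1.17 and MT-CO3 of -1.38, with adjusted p between 2.24e-05 and 0.0001873. In U-2 OS the same 4 were called lower without total library 1, with ratios of -0.50, -0.64, -0.51 and -0.60. On flow cell A alone, which holds 2 cytoplasmic libraries of U-251MG, MT-CO1 had a ratio of -1.34 and MT-CO3 of -1.12 in that line. Neither passed the threshold there (edgeR, adjusted p = 0.0421 and 0.0489). In U-2 OS, with 1 cytoplasmic library on that flow cell, the ratios of MT-CO1 and MT-CO3 were -0.77 and -0.71.

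**Figure D2:**
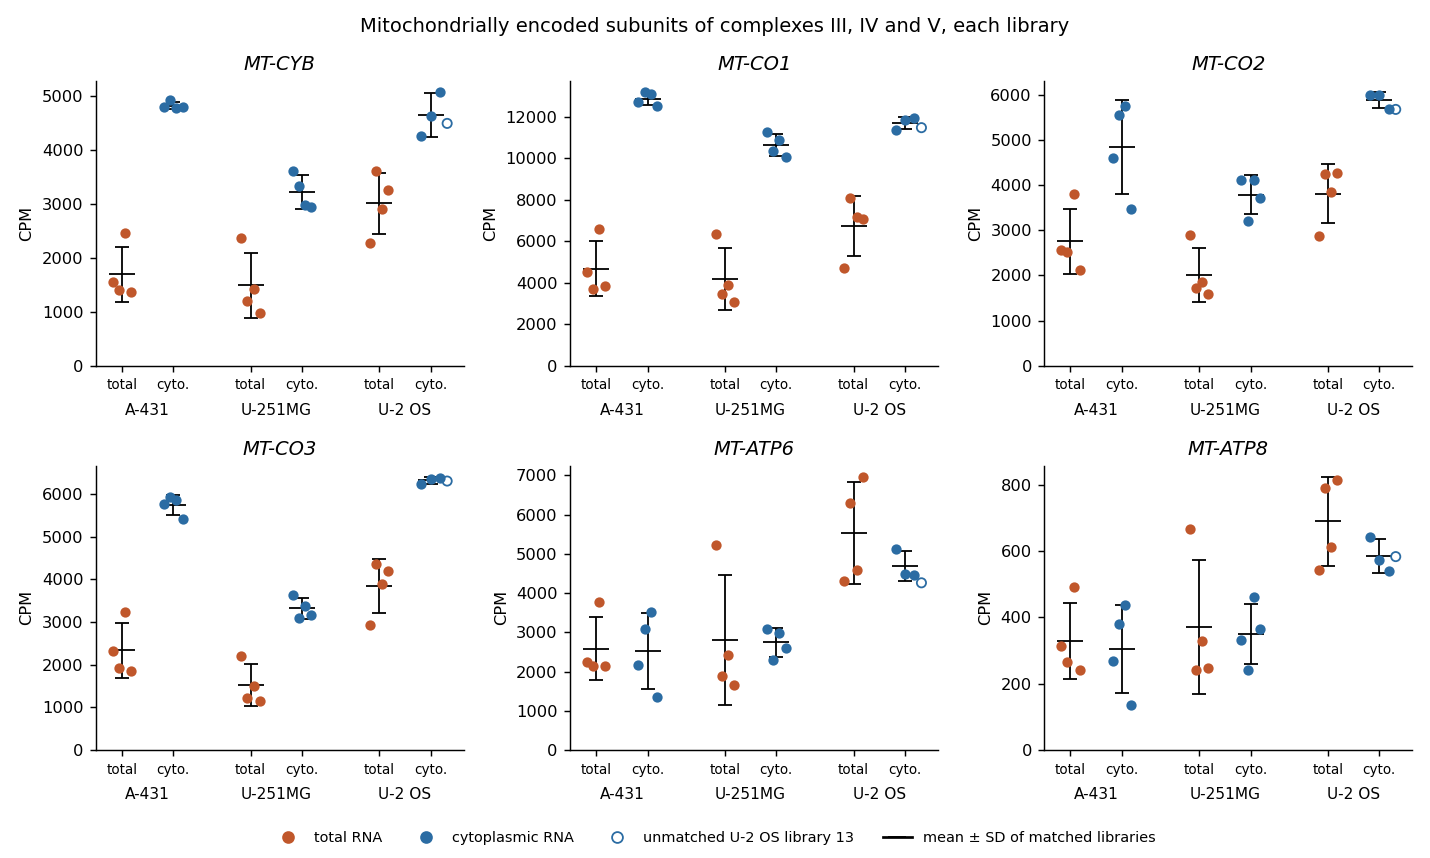
CPM of the 6 mitochondrially encoded members in each library, by cell line and fraction, with the mean and SD of the matched libraries and the unmatched U-2 OS library 13 as an open point. Each panel has its own axis from 0. MT-CYB, MT-CO1 and MT-CO3 do not overlap between fractions in any line, and MT-ATP6 and MT-ATP8 overlap in all 3.

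A ratio of MT members within a library does not depend on the scaling between libraries. Log2(MT-CO3/MT-ATP6), the ratio of counts of the adjacent genes, was -0.14 ± 0.119 in A-431 total and 1.27 ± 0.5605 in cytoplasmic RNA (SD, n = 4 each), a difference of -1.41. In U-251MG it was -0.77 ± 0.3196 in total and 0.28 ± 0.1086 in cytoplasmic RNA (SD, n = 4 each), a difference of -1.05. In U-2 OS it was -0.51 ± 0.2047 in total (SD, n = 4) and 0.43 ± 0.132 in cytoplasmic RNA (SD, n = 3), a difference of -0.95. The fractions did not overlap in any line. The exact two-sided permutation p was 0.0286 for A-431 and for U-251MG and 0.0571 for U-2 OS, each the smallest that these library numbers allow, and 0.0572, 0.0572 and 0.0856 after Benjamini-Hochberg adjustment over 12 such tests. Since the ratio was chosen after the values were seen, and the adjustment does not cover that choice, these p-values are descriptions only.

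The ratio of MT-CO2 to MT-ATP6 behaved alike, with differences of -0.90, -0.83 and -0.86 and no overlap. Log2(MT-CO1/MT-CO2) differed by -0.68 in A-431 and -0.46 in U-251MG without overlap and by -0.18 in U-2 OS with overlap (exact permutation p = 0.114). MT-ATP8 and MT-ATP6, which share 1 mRNA, kept close to 1 ratio. Their log2 ratio lay between -3.33 and -2.69 in the 23 libraries and differed by 0.11, 0.10 and 0.01 between fractions, with overlap in every line. These 4 ratios were chosen after the values were seen. On flow cell A alone, the difference in log2(MT-CO3/MT-ATP6) was -0.9991 for U-251MG and -0.79 for U-2 OS.

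**Figure D3:**
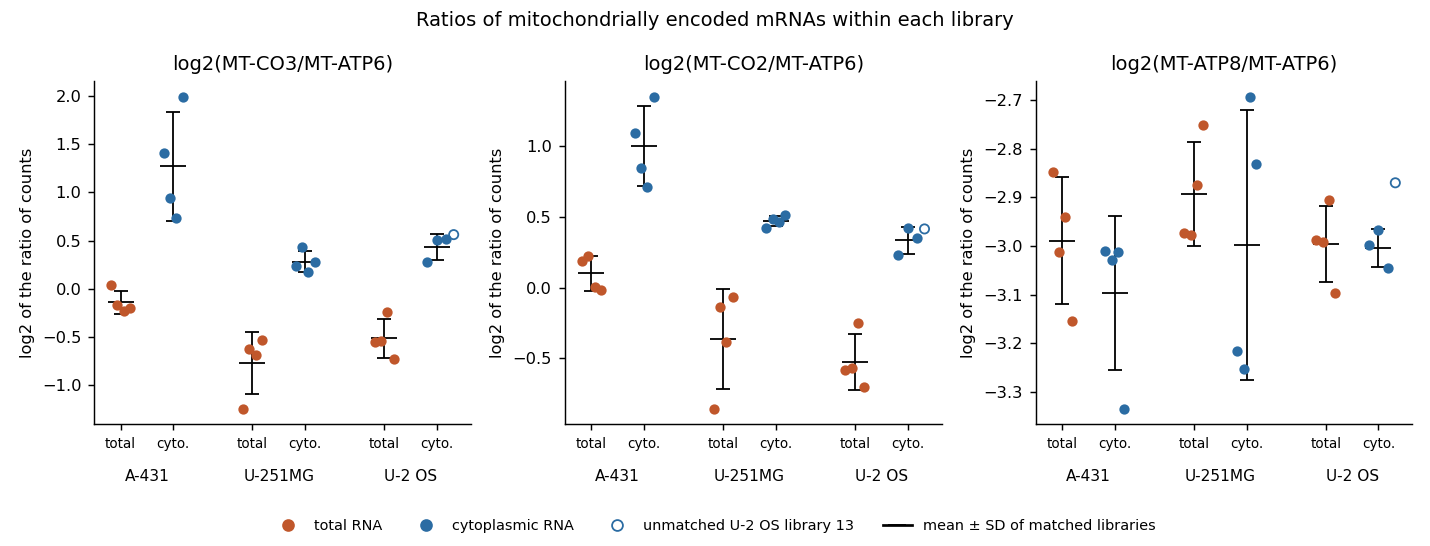
Log2 ratios of the counts of MT-CO3, MT-CO2 and MT-ATP8 to those of MT-ATP6 in each library, by cell line and fraction, with the mean and SD of the matched libraries. The panels have different axes. MT-CO3/MT-ATP6 and MT-CO2/MT-ATP6 are lower in every total library than in every cytoplasmic library of the same line, and MT-ATP8/MT-ATP6 overlaps.

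Reads from these mRNAs can also fit nuclear copies of mitochondrial DNA, of which chromosome 1 holds a long one. Along that copy MT-CO1 was identical at 98.64% of its bases, MT-ATP6 at 98.53%, MT-CO2 at 97.95% and MT-ATP8 at 97.58%, while the copy ends within MT-CO3 and holds no MT-CYB. Of all windows of 100 bases, 27.86% of MT-CO1, 11.86% of MT-ATP6, 4.67% of MT-CO3, 2.39% of MT-CO2 and none of MT-ATP8 or MT-CYB were identical to the copy. The gene annotated on the copy of MT-ATP6, MTATP6P1, was counted at a mean of 537.9 CPM (235.6 to 1024), against 36.5 CPM for the copy of MT-CO1 (MTCO1P12), 7.17 CPM for that of MT-CO3 (MTCO3P12) and 5.13 CPM for that of MT-CO2 (MTCO2P12). The log2 ratio of MTATP6P1 was -0.14, -0.16 and 0.05 in A-431, U-251MG and U-2 OS, none called. How many reads of MT-ATP6 were counted there instead was not tested.

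Of the nuclear members, 3 were called lower in total RNA of A-431, 7 in that of U-251MG, and 8 in that of U-2 OS. None was called higher except ATP5PD in U-2 OS. As shares these are 7.69% of 39 in A-431, where 19.7% of all genes were called, 17.9% in U-251MG, where 12.9% were, and 23.1% in U-2 OS, where 8.36% were. In all, 11 nuclear members were called in at least 1 line, and COX8A was the member called in all 3. The shares of all genes called in at least 1 line or in all 3 are not given here, so these counts are descriptions only. The median log2 ratio of the 39 was -0.0951, -0.17 and -0.0968 for A-431, U-251MG and U-2 OS, and 26, 31 and 28 of the ratios were below 0. The ratio was below 0 in all 3 lines for 23 nuclear members and above 0 in all 3 for 7. Part of these counts rested on single libraries. Of all 45 members, 6 were called in A-431, and 2 were without cytoplasmic library 21 or 24 and 3 without total 9 or cytoplasmic 22. In U-251MG, where 7 were called, 2 were without total 6 or cytoplasmic 18, 3 without cytoplasmic 17 or 20, and 4 without total 7 or cytoplasmic 19. There COX8A and UQCR11 held with any 1 library left out, UQCRC1 was lost without any 1 of the 8, and COX5B, COX6A1, COX6B1 and UQCR10 were each lost without several single libraries (adjusted p between 0.001029 and 0.00375). In U-2 OS 9 were called and 5 without cytoplasmic library 14, and UQCRC1 and UQCRQ were lost without total 2 or 4 or cytoplasmic 14 or 15. On flow cell A alone, with 2 cytoplasmic libraries, no member was called for U-251MG, with ratios such as -0.72 for COX8A, -0.52 for UQCR11 and -0.43 for UQCR10. For U-2 OS 5 were called there, from a single cytoplasmic library that is assumed to vary like the others.

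No complex II member was called by edgeR in any line, and none, 1 and 2 were lower at an unadjusted p under 0.05 for A-431, U-251MG and U-2 OS. SDHA, the flavoprotein with the succinate site, had ratios of -0.03, -0.09 and -0.12 in A-431, U-251MG and U-2 OS, and SDHB, the iron-sulfur subunit, of -0.12, -0.25 and -0.14. The membrane anchors differed in sign, with -0.04, -0.05 and -0.12 for SDHC and 0.15, 0.20 and 0.07 for SDHD. Their 4 mRNAs summed to 313 ± 3.20 CPM in total and 322 ± 14.8 CPM in cytoplasmic RNA of A-431, and to 277 ± 19.01 CPM and 286 ± 11.5 CPM in U-251MG (SD, n = 4 each). In U-2 OS they summed to 301 ± 2.90 CPM in total (SD, n = 4) and 319 ± 2.31 CPM in cytoplasmic RNA (SD, n = 3).

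In complex III, 1 of 9 nuclear members was called in A-431 and 3 in each of the other lines, all lower in total RNA. UQCR11, a small membrane subunit, had 42.4, 39.7, 37.7 and 39.8 CPM in A-431 total RNA, against 52.8, 49.6, 50.2 and 53.1 CPM in cytoplasmic RNA, a log2 ratio of -0.35 (SE 0.0588, adjusted p = 0.000135). In U-251MG it had 34.9, 38.98, 39.1 and 35.2 CPM in total RNA, against 55.5, 60.5, 49.95 and 55.1 CPM in cytoplasmic RNA, a ratio of -0.60 (SE 0.0785, adjusted p = 0.000155). The fractions did not overlap in either line, and both calls held with any 1 library left out. In U-2 OS the ratio was -0.34 with an adjusted p of 0.00124.

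UQCR10, another small membrane subunit, had 49.1, 60.8, 51.1 and 58.7 CPM in U-251MG total RNA, against 68.2, 75.8, 70.4 and 75.6 CPM in cytoplasmic RNA (log2 ratio -0.42, adjusted p = 0.000798). For U-2 OS the values were 76.8, 73.1, 83.7 and 71.7 CPM in total RNA, against 109, 109.7 and 95.8 CPM in cytoplasmic RNA (log2 ratio -0.45, SE 0.0582, adjusted p = 6.45e-07). UQCRC1, a core subunit related to processing peptidases, had 259.7, 292, 262 and 243 CPM in U-251MG total RNA, against 333, 398, 334 and 335 CPM in cytoplasmic RNA (log2 ratio -0.42, adjusted p = 0.000989). The fractions did not overlap in these comparisons. UQCRC1 was called in U-2 OS as well (-0.25), as was UQCRQ (-0.27). The Rieske iron-sulfur protein UQCRFS1 had ratios of 0.01, -0.02 and -0.03 in A-431, U-251MG and U-2 OS, and UQCRB, which binds near the ubiquinone site, of 0.04, 0.14 and 0.22, none called.

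In complex IV, 1 of 11 nuclear members was called in A-431, against 4 for U-251MG and 5 for U-2 OS, again all lower in total RNA. COX8A, a small membrane subunit, had 90.95, 101.2, 73.9 and 81.04 CPM in A-431 total RNA, against 117, 121, 113 and 133 CPM in cytoplasmic RNA, a log2 ratio of -0.46 (SE 0.0799, adjusted p = 0.000176). U-251MG gave 59.9, 63.6, 71.1 and 51.4 CPM in total RNA, against 97.2, 118, 98.2 and 102 CPM in cytoplasmic RNA, a ratio of -0.77 (SE 0.101, adjusted p = 0.000157). In U-2 OS it had 65.4, 73.6, 77.7 and 63.8 CPM in total RNA, against 95.5, 102 and 84.9 CPM in cytoplasmic RNA, a ratio of -0.42 (SE 0.0691, adjusted p = 0.000111). The fractions did not overlap in any line. The call was lost in A-431 without total library 12 (adjusted p = 0.001128) and in U-2 OS without cytoplasmic library 14 (adjusted p = 0.001758).

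COX5B, a subunit on the matrix side that binds zinc, had 28.5, 32.9, 38.4 and 31.7 CPM in U-251MG total RNA, against 49.6, 60.5, 49.3 and 44.2 CPM in cytoplasmic RNA (log2 ratio -0.65, SE 0.109, adjusted p = 0.000535). U-2 OS gave 40.9, 42.5, 48.8 and 37.7 CPM in total RNA, against 65.1, 68.7 and 56.02 CPM in cytoplasmic RNA (log2 ratio -0.57, SE 0.0789, adjusted p = 2.78e-05). In A-431, where the fractions overlapped, its ratio was -0.11. COX6B1, which lies at the complex IV dimer interface, was called for U-251MG (-0.40) and U-2 OS (-0.36). COX6A1, the widely expressed form of a subunit at the dimer interface, had 25.00, 30.1, 27.8 and 28.5 CPM in U-251MG total RNA, against 40.5, 43.1, 36.8 and 34.96 CPM in cytoplasmic RNA (log2 ratio -0.50, adjusted p = 0.000576). For U-2 OS the values were 26.7, 27.9, 30.1 and 27.1 CPM in total RNA, against 39.5, 37.4 and 33.9 CPM in cytoplasmic RNA (log2 ratio -0.40, adjusted p = 3.88e-05). The 6 annotated pseudogenes of COX6A1 summed to 179% of its own CPM, so that its counts are uncertain.

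COX7B, a small membrane subunit, had the largest nuclear ratio in U-2 OS. It had 62.5, 54.4, 72.2 and 59.9 CPM in total RNA, against 97.8, 99.8 and 99.3 CPM in cytoplasmic RNA, without overlap (log2 ratio -0.66, SE 0.0642, adjusted p = 4.14e-08). In A-431 it had 91.5, 86.5, 81.7 and 98.04 CPM in total RNA, against 91.7, 106, 93.3 and 100.8 CPM in cytoplasmic RNA, with overlap and a ratio of -0.12 (adjusted p = 0.133). For U-251MG the values were 43.97, 61.1, 58.2 and 67.7 CPM in total RNA, against 77.8, 76.6, 70.2 and 68.8 CPM in cytoplasmic RNA, a ratio of -0.36 (adjusted p = 0.0115). COX4I1, a regulatory subunit, had ratios of -0.14, -0.20 and -0.10 in A-431, U-251MG and U-2 OS. NDUFA4, first assigned to complex I and later to complex IV, had ratios of 0.09, -0.14 and -0.04, none of them called.

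In complex V, 1 of 15 nuclear members was called lower in A-431 and 1 higher in U-2 OS, with none called for U-251MG, where 1 was higher and 5 were lower at p under 0.05 before adjustment. ATP5F1D, the delta subunit of the central stalk, had 22.5, 30.1, 20.7 and 23.1 CPM in A-431 total RNA, against 33.2, 33.96, 29.8 and 36.3 CPM in cytoplasmic RNA. Total library 10 lay just above cytoplasmic library 23, and the log2 ratio was -0.46 (SE 0.0959, adjusted p = 0.000866). The call was lost when any of libraries 9, 11, 12, 21, 22 or 24 was left out (adjusted p between 0.001852 and 0.004621). In U-251MG its ratio of -0.86 was the lowest of all nuclear members, with an adjusted p of 0.00221.

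ATP5PD, part of the peripheral stalk, had 72.97, 71.2, 66.8 and 77.7 CPM in U-2 OS total RNA, against 57.9, 54.4 and 55.7 CPM in cytoplasmic RNA, without overlap (log2 ratio 0.37, SE 0.0588, adjusted p = 1.22e-05). It overlaps KCTD2 on the opposite strand, which had a mean of 58.9 CPM, and the counting did not use strand. In A-431 and U-251MG its ratio was 0.14 and 0.23, not called. The catalytic beta subunit ATP5F1B had ratios of -0.02, -0.07 and -0.10 in A-431, U-251MG and U-2 OS, and the alpha subunit ATP5F1A of 0.08, -0.01 and 0.04. The 15 nuclear mRNAs of complex V summed to 2057 ± 64.5 CPM in total and 2045 ± 31.3 CPM in cytoplasmic RNA of A-431 (SD, n = 4 each). By contrast, the 11 of complex IV summed to 732 ± 32.1 CPM in total and 828 ± 43.1 CPM in cytoplasmic RNA of that line (SD, n = 4 each).

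**Figure D4:**
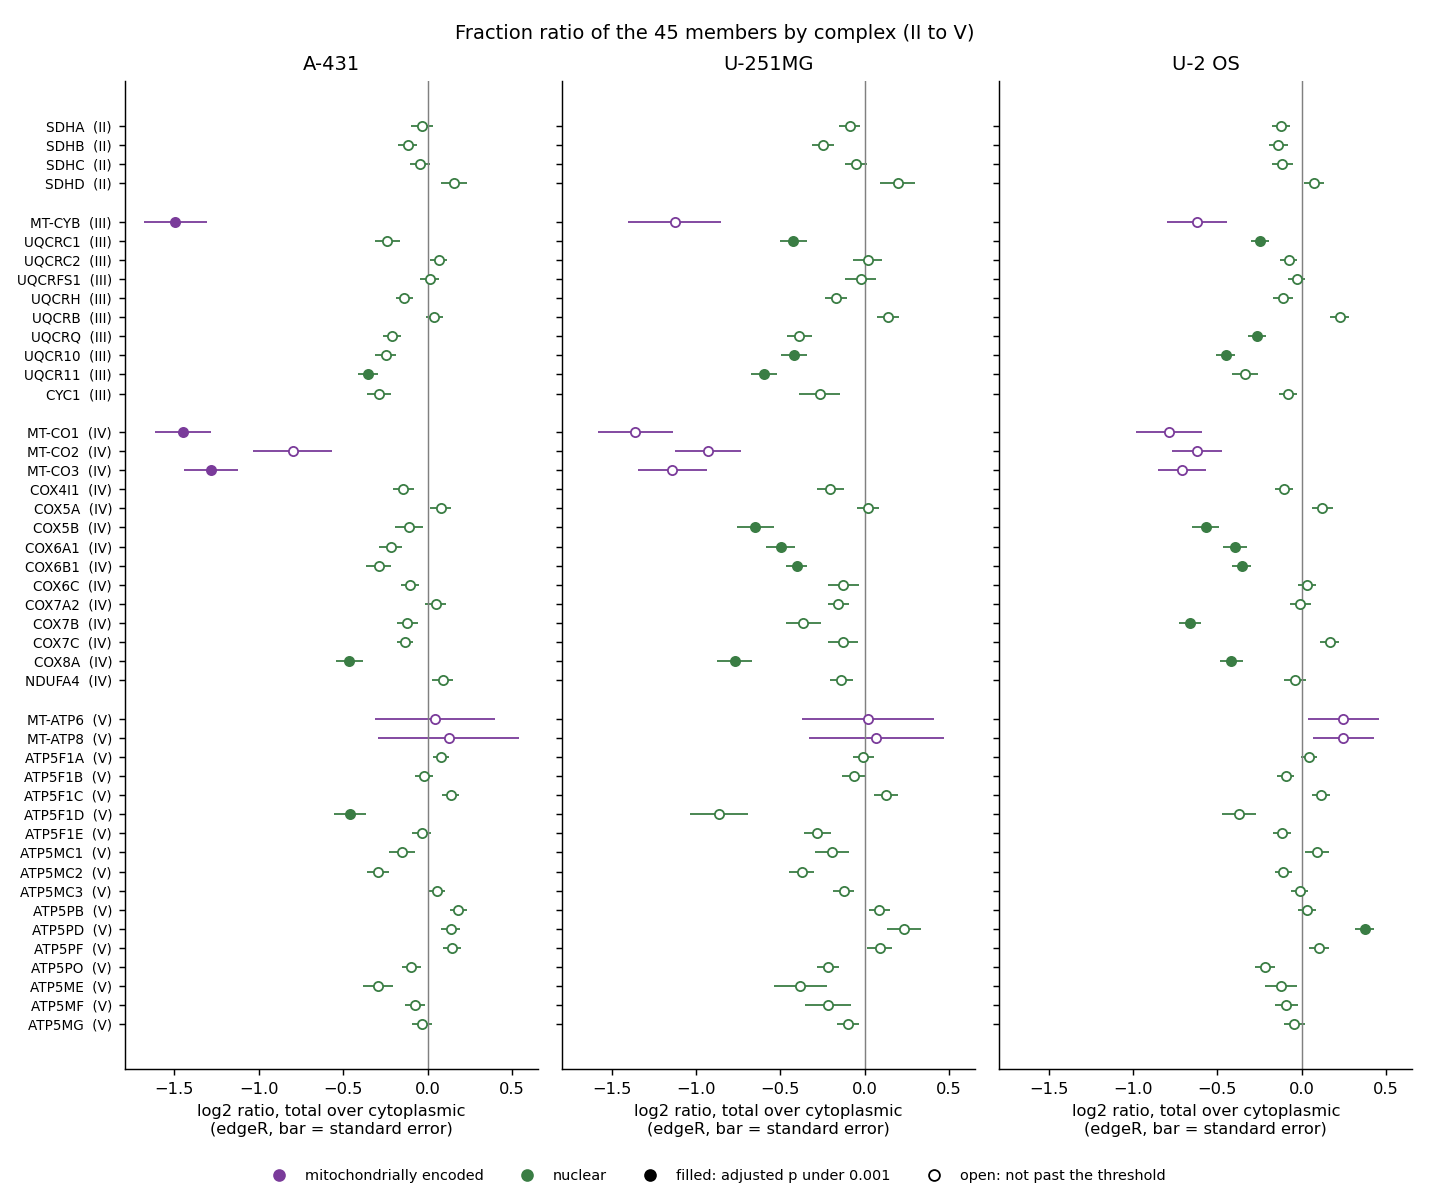
Log2 ratio of total over cytoplasmic RNA with its standard error (edgeR) for the 45 members in A-431, U-251MG and U-2 OS, ordered by complex. Mitochondrially encoded members are purple and nuclear ones green, and filled points passed an adjusted p under 0.001. The 4 MT members of complexes III and IV lie between -1.50 and -0.62 and the nuclear members between -0.86 and 0.37. In U-2 OS, COX7B (-0.66) lies left of MT-CO2 and MT-CYB (both -0.62).

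The ratios of the nuclear members varied with the GC content of their transcripts. Across the 39 genes, which are not independent replicates, Pearson's r between the log2 ratio and the GC content of the canonical transcript was -0.775, -0.695 and -0.438 for A-431, U-251MG and U-2 OS (Spearman's rho -0.758, -0.662 and -0.548), given as a description. ATP5F1D, with 69.55% GC, and COX8A, with 57.89%, had low ratios, and ATP5PB (39.42%) and ATP5PF (41.06%) had ratios above 0. The 6 MT members had 39.61 to 46.56% GC. Over all genes tested the median fell with GC content as well, with a median log2 ratio in A-431 of 0.29 below 40% GC and of -0.37 from 60% on. In U-251MG these medians were 0.38 and -0.55, and in U-2 OS 0.20 and -0.24. The 7 nuclear members below 40% GC had lower medians than all genes, 0.06, -0.10 and -0.01 in A-431, U-251MG and U-2 OS. The 2 nuclear members from 60% on had medians of -0.37, -0.57 and -0.23, near those of all genes. With an offset for GC content COX8A had ratios of -0.1985, -0.4017 and -0.2408 and was called in no line, and UQCR11 in A-431 had -0.24 without a call. The ratio of ATP5F1D in A-431 was then -0.07 (adjusted p = 0.4408), and that of UQCRC1 was -0.05 in U-251MG (adjusted p = 0.5561) and -0.07 in U-2 OS (adjusted p = 0.3313). COX7B in U-2 OS (-0.78) and COX5B (-0.53), COX6A1 (-0.33) and COX6B1 (-0.24) in U-251MG also lost their calls. The calls that held were UQCR11 (-0.43) and UQCR10 (-0.49) in U-251MG, and COX5B (-0.51), UQCR10 (-0.47), COX6A1 (-0.31), UQCRQ (-0.28), COX6B1 (-0.27) and ATP5PD (0.31) in U-2 OS. The MT calls of A-431 were lost under that offset too, although the ratios of MT-CYB (-1.58), MT-CO1 (-1.53) and MT-CO3 (-1.36) were no smaller in size.

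Whether the fraction ratio itself differed between lines was tested as an interaction (edgeR, adjusted p under 0.05). COX7B was the member called, with the ratio of A-431 above that of U-2 OS by 0.54 (SE 0.134, adjusted p = 0.0291), 1 of 45 members where 2.12% of all genes were called (0.947% higher and 1.17% lower). The call was lost when any of the U-2 OS libraries 2, 4, 14, 15 and 16 or the A-431 libraries 9, 12, 21 and 23 was left out, and with library 13 put back. For A-431 minus U-251MG no member was called by edgeR, where 0.16% of all genes were (0.12% higher and 0.0401% lower), and 4 nuclear members were higher at an unadjusted p under 0.05. For U-251MG minus U-2 OS no member was called by edgeR either, and DESeq2 called none in these 2 interactions. There 1.67% of all genes were called (0.907% higher and 0.762% lower), and an unadjusted p under 0.05 was reached by 1 nuclear member with a higher and 5 with a lower ratio. The MT ratio of A-431 minus that of U-2 OS was -0.88 (SE 0.336, adjusted p = 0.215) for MT-CYB and -0.67 (SE 0.307, adjusted p = 0.321) for MT-CO1.

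Between cell lines, individual nuclear subunits differed by up to 2.89-fold, and members of 1 complex moved in both directions. In total RNA, 24 of 45 members were called between A-431 and U-2 OS (15 higher and 9 lower in A-431), where 65.9% of all genes were (29.7% higher and 36.2% lower). Between A-431 and U-251MG, 19 were called (9 higher and 10 lower in A-431), where 57.6% were (28.3% higher and 29.3% lower). Between U-251MG and U-2 OS, 26 were called (14 higher and 12 lower in U-251MG), where 62.9% were (28.0% higher and 34.9% lower). In cytoplasmic RNA the counts were 23 between A-431 and U-2 OS (14 higher and 9 lower), where 64.3% of all genes were called (29.7% higher and 34.6% lower). They were 18 between A-431 and U-251MG (7 higher and 11 lower), where 58.6% were called (29.5% higher and 29.1% lower), and 25 between U-251MG and U-2 OS (15 higher and 10 lower), where 61.2% were called (27.1% higher and 34.1% lower). The median log2 ratio of all genes was -0.1122 for A-431 over U-2 OS and -0.1099 for U-251MG over U-2 OS in total RNA, so that members are to be read against that shift. The members' share of calls, 53.3, 42.2 and 57.8% in total RNA, was below that of all genes in each pair.

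Of the MT members, 3 were called lower in U-251MG than in U-2 OS total RNA. There MT-CO3 had a log2 ratio of -1.33 (SE 0.191, adjusted p = 3.9e-06), MT-CYB of -1.02 (SE 0.229, adjusted p = 0.000571) and MT-CO2 of -0.92 (SE 0.21, adjusted p = 0.000618) for U-251MG over U-2 OS. In cytoplasmic RNA MT-CO3 was the MT member called (-0.93, SE 0.201, adjusted p = 0.000406). No MT member was called between A-431 and either other line in either fraction. At an unadjusted p under 0.05, all 6 were lower in A-431 than in U-2 OS total RNA, with ratios from -1.10 to -0.47. In that pair 36.2% of all genes were called lower at the stricter adjusted p under 0.001. The unadjusted count is therefore not read as particular to the MT members.

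CYC1, cytochrome c1 of complex III, and UQCR11 differed most between A-431 and U-2 OS. CYC1 had 56.3, 63.1, 48.96 and 57.8 CPM in A-431 total RNA, against 173, 158, 155 and 166 CPM in U-2 OS total RNA (log2 ratio -1.53, SE 0.0966, adjusted p = 1.79e-14). UQCR11 went the other way, with 42.4, 39.7, 37.7 and 39.8 CPM in A-431, against 16.6, 16.7, 19.9 and 17.7 CPM in U-2 OS (log2 ratio 1.17, SE 0.0714, adjusted p = 3.14e-16). ATP5F1D was higher in A-431 as well, with 22.5, 30.1, 20.7 and 23.1 CPM, against 10.5, 10.98, 14.4 and 11.8 CPM in U-2 OS (log2 ratio 1.01, SE 0.152, adjusted p = 1.93e-06). The lines did not overlap for any of these genes.

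COX7A2, a small subunit of complex IV, differed most between A-431 and U-251MG. It had 30.8, 31.7, 34.1 and 34.2 CPM in A-431 total RNA, against 83.8, 82.6, 83.2 and 82.7 CPM in U-251MG total RNA (log2 ratio -1.34, SE 0.0606, adjusted p = 8.71e-20). UQCRC1 had 108, 129, 99.5 and 122.7 CPM in A-431, against 259.7, 292, 262 and 243 CPM in U-251MG (log2 ratio -1.20, SE 0.0769, adjusted p = 1.26e-15). CYC1 was lower in A-431 here too, with 56.3, 63.1, 48.96 and 57.8 CPM, against 127, 122, 93.1 and 98.2 CPM in U-251MG (log2 ratio -0.96, adjusted p = 5.24e-10). NDUFA4 had 35.3, 33.1, 33.3 and 31.2 CPM in A-431, against 57.8, 61.6, 67.2 and 68.3 CPM in U-251MG (log2 ratio -0.94, adjusted p = 2.99e-14), and its pseudogenes summed to 76.0% of its CPM. In each case all A-431 libraries were below all U-251MG libraries.

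U-251MG exceeded U-2 OS most in ATP5ME, the e subunit at the ATP synthase dimer interface. ATP5ME had 27.4, 22.5, 24.8 and 18.4 CPM in U-251MG total RNA, against 11.2, 9.74, 10.2 and 10.1 CPM in U-2 OS total RNA (log2 ratio 1.17, SE 0.123, adjusted p = 5.31e-10). UQCR11 had 34.9, 38.98, 39.1 and 35.2 CPM in U-251MG, against 16.6, 16.7, 19.9 and 17.7 CPM in U-2 OS (log2 ratio 1.06, adjusted p = 4.99e-15). COX5A, which binds thyroid hormone metabolites at complex IV, had 72.5, 75.2, 78.7 and 71.4 CPM in U-251MG, against 41.4, 41.3, 38.5 and 41.7 CPM in U-2 OS (log2 ratio 0.87, adjusted p = 3.95e-15). UQCRC1 had 259.7, 292, 262 and 243 CPM in U-251MG, against 153, 133, 145 and 148 CPM in U-2 OS (log2 ratio 0.87, adjusted p = 3.84e-12). No library of one line reached the range of the other.

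Within each complex, subunits moved in opposite directions between the same lines. In complex II of A-431 against U-2 OS, SDHB (0.29) and SDHC (0.34) were higher and SDHD (-0.57) was lower in A-431 total RNA. In complex III, 4 of 9 nuclear members were called higher and 3 lower, and in complex V 6 of 15 were higher and 2 lower. Of all genes, 29.7% were called higher and 36.2% lower in that pair, so movement in both directions is not particular to these complexes. The summed CPM of the nuclear members in total RNA was 816 ± 31.7, 969 ± 43.0 and 859 ± 23.2 for complex III of A-431, U-251MG and U-2 OS, and 732 ± 32.1, 788 ± 34.3 and 747 ± 16.9 for complex IV (SD, n = 4 each). For complex V it was 2057 ± 64.5, 2033 ± 77.2 and 1871 ± 30.3 in the same order (SD, n = 4 each). Of the 45 members, 37 were called in at least 1 comparison between lines, and 5 were called in no comparison of any kind. The share of all genes called in at least 1 comparison is not given here. Single pairs of lines called 57.6 to 65.9% of all genes, so these counts are not read as particular to the members.

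**Figure D5:**
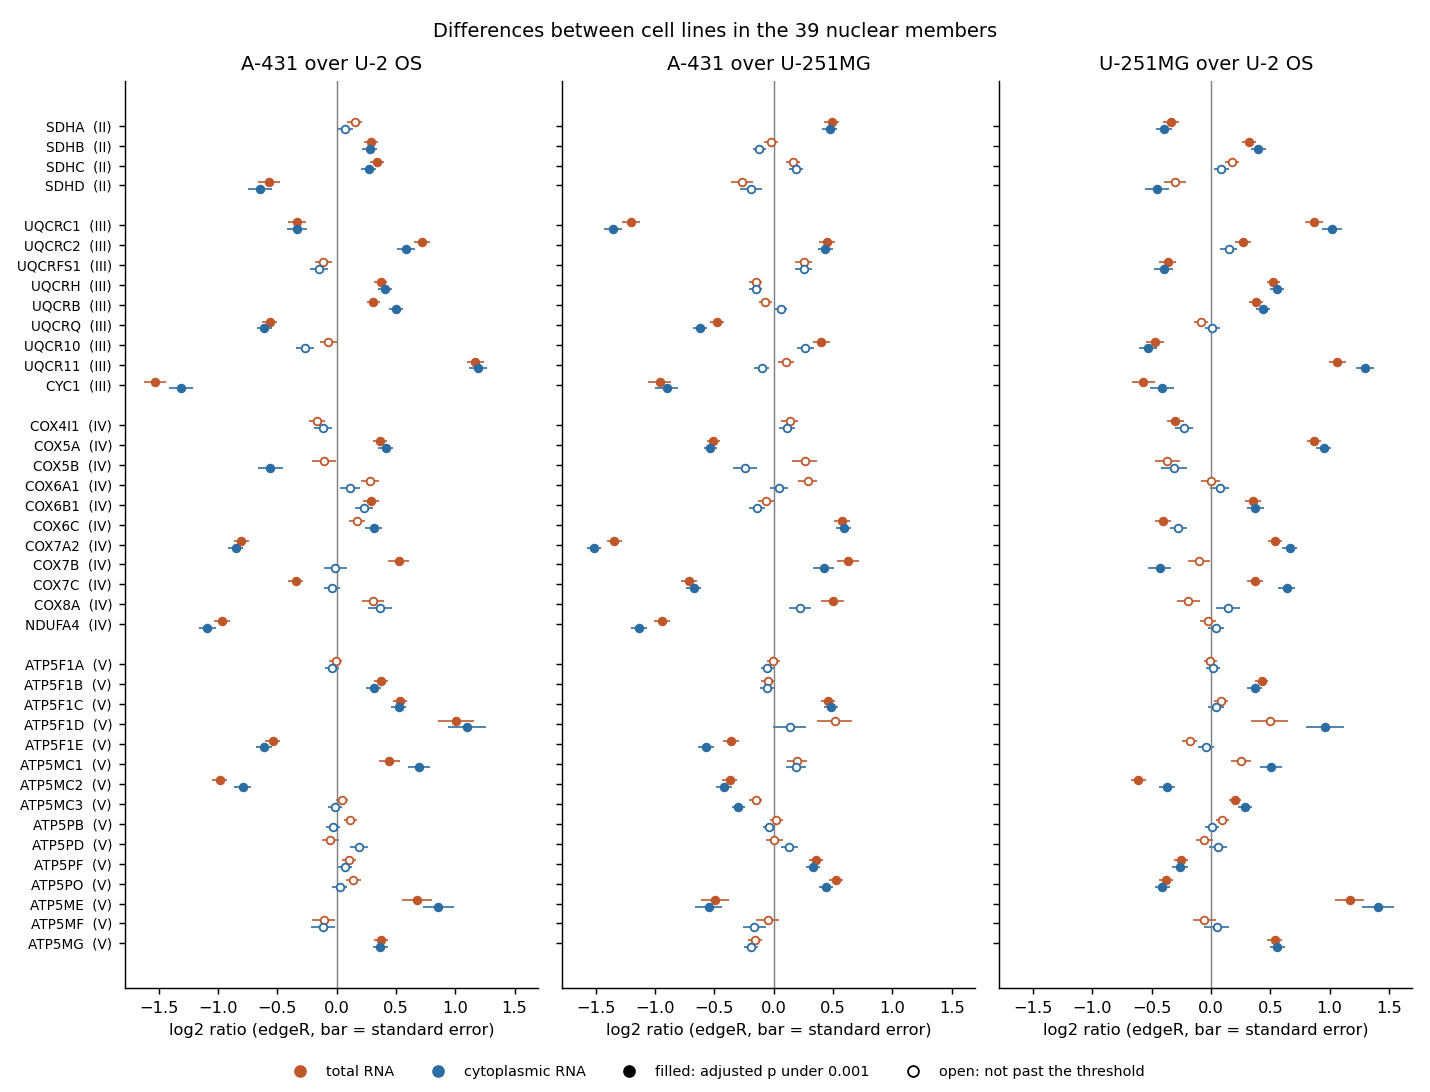
Log2 ratio between cell lines with its standard error (edgeR) for the 39 nuclear members in total RNA (orange) and cytoplasmic RNA (blue), ordered by complex. Filled points passed an adjusted p under 0.001. CYC1 (-1.53) and UQCR11 (1.17) mark the ends for A-431 over U-2 OS in total RNA, and there members of every complex lie on both sides of 0.

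The counts of the 3 genes for subunit c stood in different proportions in U-2 OS than in the other lines. They were not divided by transcript length, so the shares do not rank the genes. Per kilobase of the median coding transcript, ATP5MC2 had 91.8 CPM and ATP5MC3 had 142.2 CPM over all lines. Per kilobase of the canonical transcript, the values were 138.6 and 46.3 CPM. Of the summed ATP5MC counts in total RNA, ATP5MC1 held 17.9%, ATP5MC2 27.3% and ATP5MC3 54.8% in A-431. In U-251MG they held 13.98, 31.6 and 54.5%, whereas U-2 OS had 10.9, 44.98 and 44.1%. In cytoplasmic RNA the shares were 18.7, 31.6 and 49.7% for A-431, then 13.7, 35.3 and 51.0% for U-251MG and 9.94, 46.9 and 43.1% for U-2 OS. The ATP5MC2 share in total RNA ranged from 26.64 to 28.11% over the A-431 libraries, from 29.3 to 32.77% for U-251MG and from 43.33 to 45.99% for U-2 OS, so that U-2 OS did not overlap the other lines.

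ATP5MC1 had 37.4, 42.6, 33.1 and 37.1 CPM in A-431 total RNA. The values were 37.8, 33.5, 32.3 and 27.9 CPM for U-251MG and 30.1, 27.3, 26.5 and 26.5 CPM for U-2 OS total RNA. Cytoplasmic libraries had 43.2, 45.5, 42.1 and 37.5 CPM in A-431. They had 32.2, 39.4, 37.3 and 39.3 CPM for U-251MG and 27.00, 25.9 and 25.2 CPM for U-2 OS. It was higher in A-431 than in U-2 OS (log2 ratio 0.44 in total and 0.69 in cytoplasmic RNA, adjusted p = 2.16e-05 and 4.34e-08).

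ATP5MC2 had 59.3, 58.2, 54.1 and 57.8 CPM in A-431 total RNA. The values were 77.2, 76.3, 77.6 and 66.05 CPM for U-251MG and 114, 111, 115 and 114 CPM for U-2 OS total RNA. Cytoplasmic libraries had 68.4, 67.1, 67.2 and 81.5 CPM in A-431. They had 91.5, 100.5, 90.2 and 97.9 CPM for U-251MG and 126, 128 and 115 CPM for U-2 OS. It was lower in A-431 than in U-2 OS (log2 ratio -0.99 in total RNA, SE 0.0653, adjusted p = 2.53e-15) and in U-251MG than in U-2 OS (-0.61, SE 0.0647, adjusted p = 2.83e-10). Its pseudogenes summed to 44.4% of its CPM, and those of ATP5MC1 to 23.3% of the CPM of that gene. ATP5MC3 had 114, 118, 111 and 118 CPM in A-431 total RNA. The values were 121, 133, 127 and 131 CPM for U-251MG and 109.6, 118, 111 and 108 CPM for U-2 OS total RNA. Cytoplasmic libraries had 111, 115, 113 and 108 CPM in A-431. They had 127, 146, 138 and 138 CPM for U-251MG and 114, 113 and 112 CPM for U-2 OS. In total RNA ATP5MC3 did not pass the threshold between A-431 and either other line, and none of the 3 genes was called between fractions in any line.

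By counts per kilobase the MT members lay above the nuclear ones in both fractions, and by the deposited RPKM only in part. As CPM per kilobase of the median coding transcript, the median of the 6 MT members was 30.96 times that of the 39 nuclear members in A-431 total and 53.8 times in cytoplasmic RNA. The ratio was 25.2 and 41.5 times in U-251MG and 45.6 and 70.9 times in U-2 OS. The lowest MT member exceeded the highest nuclear member, ATP5F1B, in every group, for example 1485 against 357 CPM per kilobase in A-431 total RNA. On the deposited RPKM scale this order did not hold. There MT-CYB averaged 1117 RPKM, below ATP5F1B (2827), ATP5F1A (2286), ATP5F1C (1512), COX6B1 (1391) and UQCRC1 (1157), while the other 5 MT members, from MT-ATP8 (3591) to MT-CO2 (4846), were above all nuclear members. In A-431 total RNA the 6 MT members held 0.3168 to 0.6018% of the summed RPKM, against 0.6814 to 0.7159% for the 39 nuclear members. The values compare reads of poly(A)+ RNA and not molecules.

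Within the complexes, the deposited RPKM and the counts per kilobase ordered the nuclear members differently. By mean deposited RPKM the highest and lowest were SDHA (923) and SDHD (86.7) in complex II, UQCRC1 (1157) and UQCRFS1 (121.5) in complex III, COX6B1 (1391) and COX5A (284.5) in complex IV, and ATP5F1B (2827) and ATP5F1D (101.5) in complex V. By CPM per kilobase of the median coding transcript they were SDHC (94.2) and SDHA (61.9), UQCRH (176.7) and UQCRFS1 (32.1), COX8A (180.7) and NDUFA4 (26.8), and ATP5F1B (342) and ATP5F1D (31.7). This order depended on the length used. Per kilobase of the canonical transcript, SDHB (66.3) was highest and SDHC (33.1) lowest in complex II. UQCRB (8.91) was then lowest in complex III and COX4I1 (183.7) highest in complex IV. ATP5F1B was highest and ATP5F1D lowest in complex V on each of these scales. UQCRFS1 was lowest in complex III by RPKM and by the median coding transcript. The read numbers behind the RPKM values exceeded the counts of the members by 1.01 to 15.6 times.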

How the data were processed

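Per the labels and the study's methods, poly(A)+ RNA of whole cells and of a cytoplasmic fraction was sequenced in 3 cell lines, 4 libraries each. The authors aligned the reads to hg19 (TopHat 1.1.4, SAMtools 0.1.8) and deposited raw counts of reads per Ensembl gene made with HTSeq 0.4.6. The authors also deposited RPKM values with the read numbers behind them, which exceed the counts, and the RPKM were used for levels and as an alternative. The sources disagree on the RNA extraction and on single or paired reads. Rows without a gene (25.9 to 33.6% of counted reads) were left out, and 0 columns belonged to other samples.

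Counts were fitted with edgeR 4.0.16 (R 4.3.3; TMM scaling, low counts filtered, quasi-likelihood test, Benjamini-Hochberg adjustment over all genes tested). Each line was fitted by itself for the fraction comparison, with an adjusted p under 0.001 as a call, and all groups together for comparisons of lines (0.001) and interactions (0.05). In U-2 OS, cytoplasmic library 13, which could not be matched to the read table, was left out. CPM are counts divided by the scaled library size in units of 1000000. Gene symbols came from GENCODE v44lift37, which named 42986 of 51715 IDs. The script was tested on simulated counts. Values in every library were printed for the 6 MT members, up to 6 called nuclear members per fraction comparison, up to 4 per pair of lines in total RNA, members called in an interaction, and ATP5MC1 to ATP5MC3. Other members were named by role, or as the most and least abundant of a complex. Members and gene lists were chosen with earlier results of these data known. The alternatives were other scaling, no filter, DESeq2 1.42.0, limma 3.58.1 on log2 RPKM plus a pseudocount of 0.1 or 1, a GC offset in 20 bins, flow cell A alone, the replicate number as a block, all 24 libraries, and leaving out each library. Calculations outside R used Python 3.11.15 with scipy 1.17.1.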

Additional observations from a re-analysis of the deposited data

Results flagged for a closer look

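In 10 of 140 groups of 4 libraries, 1 library stood apart from the other 3 by Dixon's criterion. Chance gives about 1 in 20 such groups, which is 7 here. MT-CYB had 2457 CPM in A-431 total library 11 (1367 to 1552 CPM in the others), and MT-ATP6 had 3783 CPM in the same library (2141 to 2256 CPM). UQCR10 had 65.35 CPM in that library (74.33 to 75.65 CPM). In A-431 cytoplasmic library 24, ATP5MC2 had 81.49 CPM (67.09 to 68.37 CPM), ATP5PD 66.89 CPM (62.59 to 63.0 CPM) and ATP5ME 23.35 CPM (19.19 to 19.57 CPM). In U-251MG, UQCRC1 had 397.5 CPM in cytoplasmic library 18 (332.6 to 334.7 CPM), UQCRQ 95.8 CPM in total library 7 (83.85 to 85.51 CPM) and ATP5MC2 66.05 CPM in total library 8 (76.27 to 77.63 CPM). COX5A had 38.51 CPM in U-2 OS total library 3 (41.32 to 41.68 CPM).

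The log2 ratio of total over cytoplasmic RNA of COX7B differed between A-431 and U-2 OS by 0.535 in the interaction test (edgeR, adjusted p = 0.0291). The call was lost in 10 of 28 other settings, and 2.12% of all genes were called in this interaction. The total libraries were below the cytoplasmic ones without overlap in U-2 OS, and the fractions overlapped in A-431.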

How the results depend on the processing

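The number of members called between fractions depended on the setting. The share of all genes called under each alternative is not given here, so these counts are not read as particular to the members. In A-431, 6 members were called, against 11 with the replicate block, 10 by DESeq2, 2 and 2 by limma on log2(RPKM + 0.1) and log2(RPKM + 1), and 2 to 6 when 1 library was left out. In U-251MG, 7 were called, against 0 on flow cell A alone, 13 with 1 model over all groups, 4 with the GC offset, 13 by DESeq2, 0 and 0 by limma, and 2 to 6 when 1 library was left out. In U-2 OS, 9 were called, against 5 with all 24 libraries, 14 with the replicate block, 5 on flow cell A alone, 2 with 1 model, 0 and 0 by limma, and 5 to 13 when 1 library was left out. For the interaction of A-431 with U-2 OS, 1 member was called, 2 with no filter, 0 with all 24 libraries, 2 by DESeq2, and 0 to 2 with 1 library left out. For A-431 minus U-251MG 1 was called with no filter, and for U-251MG minus U-2 OS 0 to 1 with 1 library left out. Counts between lines stayed within 1.5 times. Whether the replicate numbers pair the samples is not given. Deviations of same-numbered libraries correlated between -0.199 and 0.21 across genes, which cannot decide it. With the block MT-CO2 was called lower in all 3 lines, MT-CO1 and MT-CO3 too, and MT-CYB in A-431 and U-251MG.

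MT-ATP6 and MT-ATP8 changed sign. With the GC offset their A-431 ratios were -0.1130 and -0.1315. In U-251MG MT-ATP6 was at -0.1429 with the replicate block, -0.0080 on flow cell A, -0.1149 with the GC offset, and -0.1888 and -0.1887 by limma. MT-ATP8 was there at -0.0404, -0.1719 and -0.2258 under the first 3 of these. With 1 library left out, MT-ATP6 ranged from -0.1971 to 0.2459 in A-431 and from -0.4843 to 0.2113 in U-251MG, and MT-ATP8 from -0.1369 to 0.3518 and from -0.3845 to 0.2364. The log2 ratio of the nuclear share was -0.1645, -0.2423 and -0.1645 in A-431, U-251MG and U-2 OS as a share of summed RPKM. In U-2 OS it was -0.1078 with the mitochondrially encoded genes out of the denominator and -0.0384 with all 24 libraries. The cause of these changes was not tested. Fraction and flow cell cannot be told apart in A-431.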

Other observations

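Some other mitochondrially encoded RNAs were called lower in total RNA of U-251MG or U-2 OS. The log2 ratio of total over cytoplasmic RNA of the ribosomal RNA MT-RNR2 was -0.9992, -0.99 and -0.67 for A-431, U-251MG and U-2 OS, and that of MT-RNR1 was -0.94, -0.84 and -0.63. Both were called lower in U-251MG and MT-RNR1 in U-2 OS (edgeR, adjusted p under 0.001). Of 7 mRNAs for complex I subunits, none was called in A-431, MT-ND4L was lower in U-251MG (-1.40) and MT-ND5 in U-2 OS (-0.86). MT-ND3 had ratios of 1.29, 0.51 and 0.09, none called.

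Among 24 nuclear genes for mitochondrial RNA synthesis and stability, 4 were called higher and 2 lower in A-431. The counts were 1 higher and 2 lower for U-251MG, against 3 and 3 for U-2 OS. Of all genes tested, 10.2% were called higher and 9.51% lower in A-431. For U-251MG these shares were 5.93 and 6.98%, while U-2 OS had 4.75% higher and 3.61% lower. None of the counts is read as particular to the list. LRPPRC, which stabilizes mitochondrial mRNAs together with SLIRP, was higher in total RNA of A-431 (0.38), and SLIRP was lower in U-2 OS (-0.60). TFAM, which packages mitochondrial DNA and starts its transcription, was higher in U-251MG (0.52) and U-2 OS (0.35). FASTKD4 was lower in all 3 lines (-0.37, -0.56 and -0.37). Of 37 assembly factors tested, none was higher and 3 were lower in A-431, 1 was higher and 1 lower in U-251MG, and 3 were higher and 1 lower in U-2 OS, beside the same shares of all genes. Those lower in A-431 included BCS1L (-0.55), which inserts the iron-sulfur protein into complex III. COX14, an assembly factor of complex IV, was lower in U-251MG (-0.57) and U-2 OS (-0.47), and COA6 was higher in U-2 OS (0.60). Of the 10 regulators, ESRRA was lower in A-431 (-0.43) and U-251MG (-0.72) and GABPA higher in U-2 OS (0.32). None of the 6 genes of the list with cytochrome c was called, with CYCS at 0.27, 0.34 and 0.22 (adjusted p between 0.0014 and 0.015).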
